A study of Homo sapiens with 6 samples.

Results

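The genes described here are 10 members of WNT signalling read from IMR90 human fetal lung fibroblasts: the ligands WNT2, WNT2B, WNT5A and WNT5B, the secreted antagonists SFRP1, SFRP2, FRZB, DKK1 and DKK3, and FZD4, which is a receptor and neither a ligand nor an antagonist. They were taken by symbol from 57659 Ensembl genes counted in 6 libraries. Of the 10, 8 had enough counts to be tested, FRZB had 24 counts over all libraries and SFRP2 had none. The control group held 3 libraries from IMR90 cells with a short hairpin RNA against luciferase, which has no target in the human genome. The knockdown group held 3 libraries from IMR90 cells with a hairpin against macroH2A1, a histone H2A variant with a large globular domain. Both groups share the cell line, the culture medium and the expression of a hairpin. How many hairpin sequences were used, and whether the cultures were separate, is not given in the sources used here beyond the series' term biological replicates, so p-values measure the spread between these libraries. The genes were chosen by symbol with the log2 fold changes and counts of this same comparison known, so their fold changes and adjusted p-values are given as a description and lend no independent support.

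WNT ligands are lipid-modified secreted proteins that bind Frizzled receptors on nearby cells. With the co-receptors LRP5 and LRP6, some of them stabilise beta-catenin, which then acts with TCF and LEF factors in the nucleus, while WNT5A and WNT5B are best known for signalling through ROR2 and related receptors without beta-catenin. SFRP proteins and FRZB carry a Frizzled-like domain and bind WNT proteins outside the cell, and DKK1 blocks LRP5 and LRP6. In the developing lung, WNT2 and WNT2B are made by the mesenchyme and are needed for the lung to form.

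Knockdown of the targeted gene showed in each library. MACROH2A1 (ENSG00000113648, chromosome 5) was at 92.1, 88.0 and 84.8 CPM (counts per 1000000 of a library size scaled by the TMM method) in control replicates 1 to 3 and at 39.0, 43.7 and 39.9 CPM in knockdown replicates 1 to 3, a fall to 46.3% (log2 fold change -1.11, edgeR adjusted p = 0.000917). Libraries held 3741087 to 6421605 gene counts. All 10 fibroblast markers were expressed enough to be tested, and PECAM1, CD3E, SFTPB, SCGB1A1 and HBA1, which mark endothelial, blood and lung epithelial cells, had no counts in any library. Other listed markers were expressed, among them ACTA2 of smooth muscle at 360 and 317 CPM, TEK at 62.3 and 132 CPM and KRT18 at 24.5 and 8.19 CPM in the control and knockdown. Some markers moved with the groups: the summed fibroblast list went from 7504 to 8562 CPM in the control to 11998 to 12742 CPM in the knockdown. Of its 10 markers 5 were called higher, where 3.9% of all genes tested were. The summed endothelial list went from 60.8 to 65.4 up to 137 to 145 CPM, all but a small rest of it from TEK and KDR. KDR had 5 counts in the control and 111 in the knockdown group, while VWF had 17 and 8. PECAM1 had no counts and CDH5 and CLDN5 had 1 each. The summed epithelial list went from 27.4 to 29.7 down to 7.71 to 11.8 CPM, nearly all of it KRT18 and KRT8, and EPCAM had 7 counts in all. The 6 markers of smooth muscle and pericytes summed to 396 to 431 CPM in the control and 348 to 389 in the knockdown with 0 called, and those of blood cells to 5.49 to 7.28 and 4.15 to 5.44 CPM, nearly all of it CD68. Their part in the results below was not tested, and in bulk RNA fewer cells of a kind and less RNA per cell cannot be told apart.

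Of the 8 WNT genes tested, 5 passed an adjusted p of 0.05 in the fit over all 13445 genes, where 8.21% were called, 3.9% higher and 4.31% lower in the knockdown. WNT2 and WNT2B were higher in the knockdown, and WNT5B, SFRP1 and DKK1 were lower. WNT5A, DKK3 and FZD4 did not pass. The groups of libraries did not overlap for 6 of the 8, the same 5 and DKK3, against 30.4% of all genes tested, 14.5% higher and 15.9% lower. The share of calls among the 8 follows from how the genes were chosen and nothing is read from it.

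**Figure D1:**
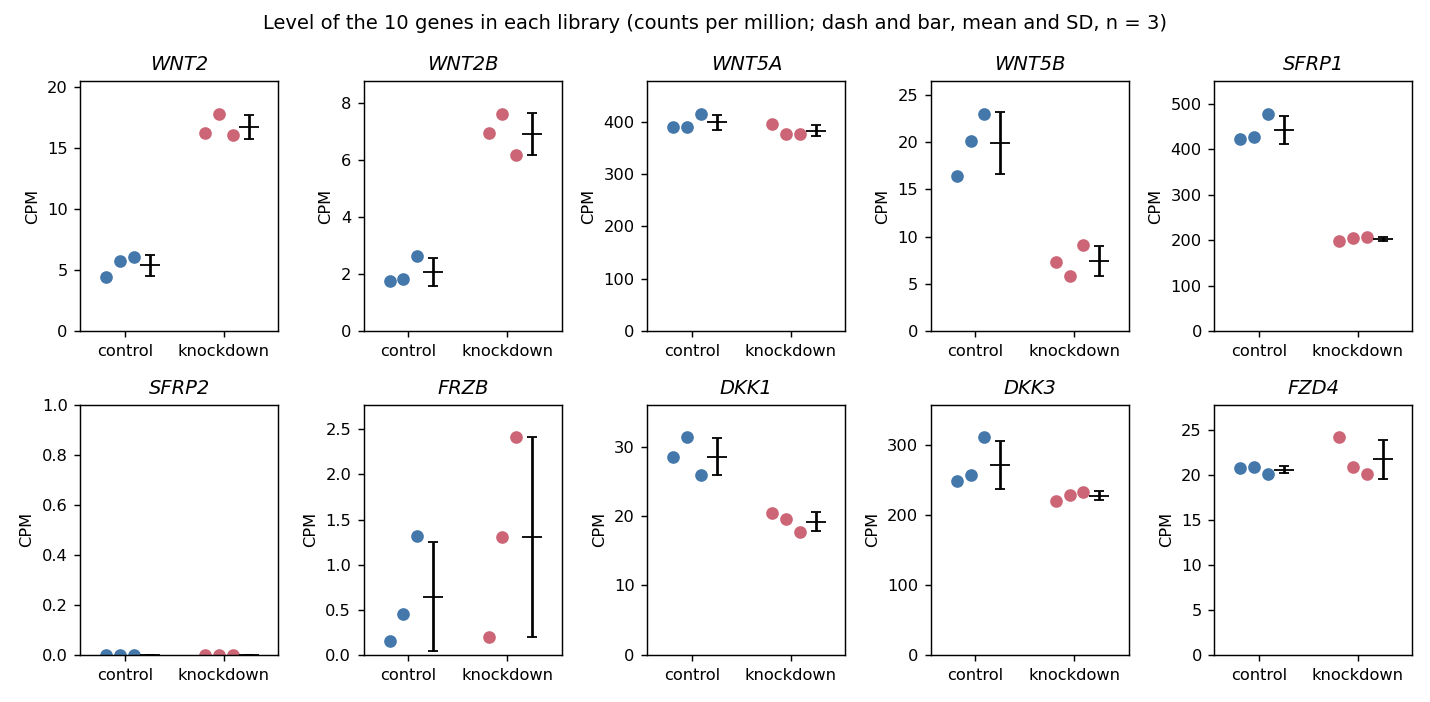
Level of each of the 10 genes in CPM (vertical axes, each from 0) in the 3 control libraries (blue) and the 3 knockdown libraries (red), with the mean and SD beside them. The groups stand apart for WNT2, WNT2B, WNT5B, SFRP1, DKK1 and DKK3, overlap for WNT5A, FRZB and FZD4, and SFRP2 is at 0 throughout.

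Among the ligands, WNT2 and its close relative WNT2B had the highest fold changes of the 10 genes. WNT2 (ENSG00000105989, chromosome 7) was at 4.43, 5.72 and 6.08 CPM in control replicates 1 to 3 and at 16.2, 17.8 and 16.1 CPM in knockdown replicates 1 to 3. Every knockdown library was above every control library by a wide margin, and the knockdown libraries lay closer together than the control ones in proportion. The level rose 3.12-fold, from 5.41 ± 0.867 to 16.7 ± 0.976 CPM (SD, n = 3 per group; log2 fold change 1.64, SE 0.17, edgeR adjusted p = 0.00317).

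WNT2B (ENSG00000134245, chromosome 1) was at 1.74, 1.83 and 2.64 CPM in the control and at 6.92, 7.61 and 6.16 CPM in the knockdown libraries. The lowest knockdown library was thus above the highest control library here too, although the control group rests on 29 counts in all, against 93 in the knockdown group. The level rose 3.38-fold, from 2.07 ± 0.498 to 6.90 ± 0.725 CPM (SD, n = 3 per group; log2 fold change 1.76, SE 0.24, edgeR adjusted p = 0.00909). The 2 genes kept a like proportion to each other: there were 32.0 to 43.5 WNT2B counts per 100 WNT2 counts in the control libraries and 38.3 to 42.7 in the knockdown libraries.

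WNT5A and WNT5B, the other pair of related ligands, did not move alike. WNT5A (ENSG00000114251, chromosome 3) was at 390, 391 and 415 CPM in the control and at 395, 376 and 377 CPM in the knockdown libraries. The groups overlap, and the log2 fold change of -0.06 has a 95% interval from -0.23 to 0.11 (SE 0.07, edgeR adjusted p = 0.667), so a change of the size seen in the other 3 ligands lies outside it.

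WNT5B (ENSG00000111186, chromosome 12) was at 16.5, 20.1 and 23.0 CPM in the control and at 7.32, 5.87 and 9.11 CPM in the knockdown libraries. All knockdown libraries were below all control libraries, though libraries of 1 group differed by up to 1.55 times. The level fell 2.67-fold, from 19.9 ± 3.28 to 7.43 ± 1.62 CPM (SD, n = 3 per group; log2 fold change -1.42, SE 0.21, edgeR adjusted p = 0.0107). Per 100 WNT5A counts there were 4.22 to 5.53 WNT5B counts in the control and 1.56 to 2.41 in the knockdown libraries. Over the same libraries WNT2 went from 1.14 to 1.46 up to 4.11 to 4.75 counts per 100 WNT5A counts, so that WNT2 had fewer counts than WNT5B in every control library and more in every knockdown library.

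The promoters of the ligand genes that rose are shown because the genes moved together. Each is the stretch of 250 bases before a RefSeq transcription start on the build GRCh38.p14, written 5′ to 3′ on the gene's strand, with CG dinucleotides in capitals. WNT2 has 1 listed start (chr7:117323059-117323308, minus strand) and WNT2B has 2 (chr1:112466291-112466540 and chr1:112508715-112508964, plus strand).
WNT2: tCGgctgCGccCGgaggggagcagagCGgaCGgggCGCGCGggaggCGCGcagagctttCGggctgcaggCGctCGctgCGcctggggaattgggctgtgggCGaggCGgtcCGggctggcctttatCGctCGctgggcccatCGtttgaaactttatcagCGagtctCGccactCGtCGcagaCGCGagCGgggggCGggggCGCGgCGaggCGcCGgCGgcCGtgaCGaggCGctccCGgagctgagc
WNT2B, first start: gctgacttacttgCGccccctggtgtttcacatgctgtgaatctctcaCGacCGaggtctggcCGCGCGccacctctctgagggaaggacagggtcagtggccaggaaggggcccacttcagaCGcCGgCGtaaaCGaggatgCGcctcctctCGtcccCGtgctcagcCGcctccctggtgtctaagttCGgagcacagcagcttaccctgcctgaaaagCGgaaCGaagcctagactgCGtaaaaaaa
WNT2B, second start: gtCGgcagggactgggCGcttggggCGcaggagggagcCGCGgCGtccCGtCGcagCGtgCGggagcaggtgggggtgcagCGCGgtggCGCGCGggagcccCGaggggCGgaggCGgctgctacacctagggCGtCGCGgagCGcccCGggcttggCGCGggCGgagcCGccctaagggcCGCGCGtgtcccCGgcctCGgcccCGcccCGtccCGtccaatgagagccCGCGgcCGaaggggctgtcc
The windows of WNT2 and of the second WNT2B start each hold 38 CG dinucleotides, more than 96.7% of the 35116 promoter windows in the table, whose median is 11. The first WNT2B start holds 18. The counts are per gene, so they do not tell which WNT2B start was in use.

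The other ligands had fewer CG dinucleotides in the same window than WNT2 and the second WNT2B start, though not all had fewer than the first WNT2B start. WNT5A has 14 and 18 at its 2 listed starts, and WNT5B has 10 and 7. The receptor gene FZD4 has 33 and did not pass the test, so the count of these letters did not separate the genes by their change. None of the ligand windows holds the letters CTTTGAT or CTTTGAA, the core that TCF and LEF factors bind, on either strand, where 2.26% and 3.80% of all windows hold them. The letters TATAAA are found on the opposite strand of the second WNT5B window, starting 78 bases before the start, and 10.7% of all windows hold them on 1 of the strands. The windows were searched for letters only, and a match is no shown binding site.

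Among the secreted antagonists, SFRP1 and DKK1 were lower in the knockdown and none of the 3 tested was higher. SFRP1 (ENSG00000104332, chromosome 8), which binds WNT proteins outside the cell, was at 423, 427 and 478 CPM in the control and at 198, 205 and 207 CPM in the knockdown libraries. The knockdown libraries lay within 1.04 times of each other and far below the lowest control library. The level fell 2.18-fold, from 443 ± 30.7 to 203 ± 4.65 CPM (SD, n = 3 per group; log2 fold change -1.12, SE 0.08, edgeR adjusted p = 0.00093). In proportion this is near the fall of the targeted gene itself.

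DKK1 (ENSG00000107984, chromosome 10), the LRP5 and LRP6 antagonist, was at 28.5, 31.3 and 25.9 CPM in the control and at 20.4, 19.6 and 17.7 CPM in the knockdown libraries. The groups do not overlap, but the gap between the lowest control and the highest knockdown library is small. The level fell 1.48-fold, from 28.6 ± 2.71 to 19.2 ± 1.38 CPM (SD, n = 3 per group; log2 fold change -0.57, SE 0.11, edgeR adjusted p = 0.0232). The call was lost without control replicate 1, control replicate 2 or any of the 3 knockdown replicates, with edgeR adjusted p from 0.0576 to 0.0858, while the log2 fold change stayed between -0.64 and -0.50.

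The DKK1 promoter is shown because, of the member windows searched, it alone holds the letters CTTTGAA and TATAAA on its own strand. SFRP1 and DKK3 were not searched. Of all promoter windows, 5.94% hold CTTTGAT or CTTTGAA and 10.7% hold TATAAA, counting both strands. These are matches of letters, and binding was not tested. The DKK1 window covers chr10:52314031-52314280 on the plus strand of GRCh38.p14. Capitals mark CTTTGAA, which starts 95 bases before the transcription start, and TATAAA, which starts 30 bases before it.
DKK1: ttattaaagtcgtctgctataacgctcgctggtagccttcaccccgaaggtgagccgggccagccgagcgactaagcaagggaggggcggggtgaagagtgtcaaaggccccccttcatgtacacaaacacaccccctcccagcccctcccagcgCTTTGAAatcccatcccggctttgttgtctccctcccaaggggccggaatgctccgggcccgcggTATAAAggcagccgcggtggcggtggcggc
The GENCODE 29 transcript of DKK1 begins 15 bases after this RefSeq start, on the same strand, so the distances hold for the RefSeq start alone. The window holds 18 CG dinucleotides. SFRP2 and FRZB hold 11 each in theirs and neither motif.

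DKK3 (ENSG00000050165, chromosome 11), a divergent member of the Dickkopf family, was at 248, 256 and 311 CPM in the control and at 220, 229 and 233 CPM in the knockdown libraries. Each knockdown library was below each control library, and control replicate 3 stood above the other control libraries. The log2 fold change of -0.26 (95% interval -0.50 to -0.02) did not pass over all genes (edgeR adjusted p = 0.179). It passed when edgeR was run on just the genes that the authors' deposited table lists (adjusted p = 0.0362), where 17.7% of genes were called. As SFRP1 was lower and DKK3 moved little, the libraries held 154 to 171 SFRP1 counts per 100 DKK3 counts in the control and 88.7 to 90.1 in the knockdown.

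FRZB and SFRP2 were too low to be tested in the reported fit. FRZB (ENSG00000162998, chromosome 2) had 1, 2 and 5 counts in control replicates 1 to 3 and 1, 6 and 9 counts in knockdown replicates 1 to 3. The groups overlap, and the ratio of the summed counts, 2.16 after scaling, has an exact 95% counting interval from 0.873 to 5.84. SFRP2 (ENSG00000145423, chromosome 4) had 0 counts in all 6 libraries. In any 1 library, 3 counts, the number a count of 0 allows, correspond to 0.467 to 0.802 CPM. A level of SFRP2 below that in a single library could go with its count of 0. The 0 counts in all 6 libraries together bound a level shared by them more tightly.

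FZD4 (ENSG00000174804, chromosome 11), a receptor for WNT proteins and for norrin, was at 20.7, 20.8 and 20.1 CPM in the control and at 24.1, 20.9 and 20.1 CPM in the knockdown libraries. The groups overlap, with knockdown replicate 1 above the rest. The log2 fold change was 0.08 (SE 0.10, 95% interval -0.16 to 0.32, edgeR adjusted p = 0.686).

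Some members share ground with a gene on the opposite strand in the GENCODE 29 annotation, and whether the counts used strand is not given in the sources used here. If they did not, reads where exons of the 2 genes overlap cannot be assigned to either. Reads listed as ambiguous and counted for no gene were 1.51% to 1.85% of all reads listed, where reads in genes were 11.9% to 13.7%. How many of the ambiguous reads fell on these members is not given. Exons of FZD4 overlap those of PRSS23, a serine protease gene, over 1399 bases, and PRSS23 fell from 131 ± 11.7 to 61.1 ± 2.54 CPM (SD, n = 3 per group; log2 fold change -1.10, edgeR adjusted p = 0.00132). Exons of WNT2B overlap those of ST7L over 2661 bases, and ST7L was at 14.5 ± 3.01 CPM in the control and 13.4 ± 0.830 in the knockdown (log2 fold change -0.11, edgeR adjusted p = 0.757). The overlapping antisense gene AC002465.1 at WNT2 had 0 counts in every library, PRKG1-AS1 at DKK1 had 1 to 4, and WNT5A-AS1, which shares no exon bases with WNT5A, had 1 to 3. FBXL14 lies opposite WNT5B with no shared exon bases and had a log2 fold change of 0.19 (edgeR adjusted p = 0.815). RPS29P2, RNU6-895P and, on the same strand, ENSG00000253509 lie within SFRP1 without shared exon bases and had at most 1 count in a library. The values of FZD4 and WNT2B are uncertain to this extent.

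The authors' deposited table was made with another tool from the same counts, so its values lend no independent support. It lists 9 of the 10, all but SFRP2. Of these, 5 have an adjusted p under 0.05, WNT2, WNT2B, WNT5B, SFRP1 and DKK1, against 12.0% of the genes it lists. As the genes were chosen with this comparison known, nothing is read from the share. The authors' deposited table gives log2 ratios of 1.64 for WNT2, 1.75 for WNT2B, -1.41 for WNT5B, -1.11 for SFRP1 and -0.56 for DKK1. For FRZB the authors' deposited table gives a ratio of 2.04 with an adjusted p of 0.739.

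To set the genes beside each other, levels were divided by the length of the merged exons in GENCODE 29, giving CPM per kilobase. In the control SFRP1 was highest at 93.0 ± 6.45 CPM per kilobase (SD, n = 3 for every level in this paragraph). WNT5A at 53.9 ± 1.96 and DKK3 at 53.7 ± 6.74 followed and did not differ beyond their spread. Below them came DKK1 at 12.9 ± 1.23, WNT5B at 4.61 ± 0.762, FZD4 at 2.78 ± 0.0534 and WNT2 at 1.20 ± 0.193. FRZB at 0.204 ± 0.191 and WNT2B at 0.165 ± 0.0396 were lowest of those detected and did not differ beyond their spread.

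In the knockdown the order changed. WNT5A was highest at 51.7 ± 1.42 CPM per kilobase (SD, n = 3), ahead of DKK3 at 44.9 ± 1.32 and SFRP1 at 42.7 ± 0.976, and the means ± SD of the last 2 touch. DKK1 followed at 8.71 ± 0.627. WNT2, at 3.72 ± 0.217, now stood above FZD4 at 2.94 ± 0.290 and WNT5B at 1.73 ± 0.377. WNT2B was at 0.549 ± 0.0577 and FRZB at 0.413 ± 0.350, which overlap. The order depends on the length used: over the longest transcript in place of the merged exons, DKK3 came first in both groups, at 102 in the control and 85.7 CPM per kilobase in the knockdown, and WNT5B stood above FZD4 in the knockdown.

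**Figure D2:**
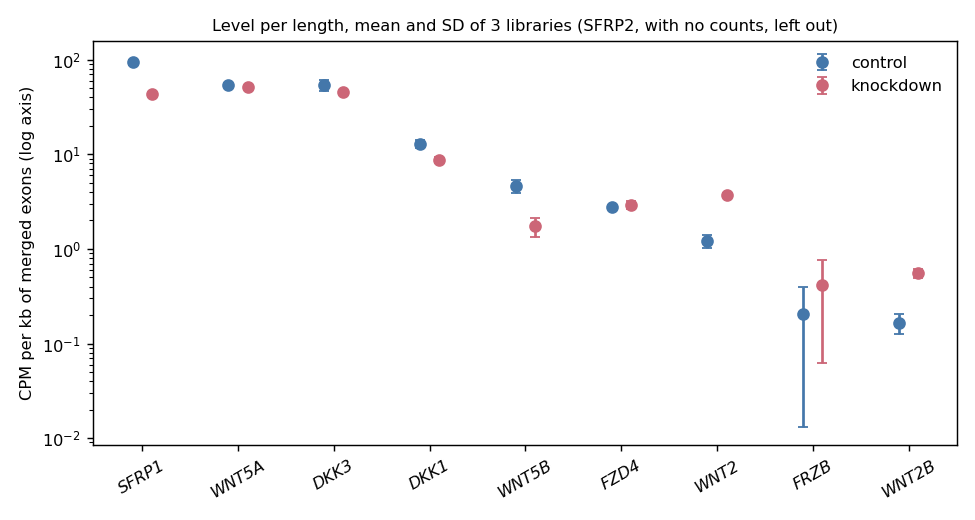
CPM per kilobase of merged exons (vertical log axis) of the 9 genes with counts, as mean and SD of 3 control libraries (blue) and 3 knockdown libraries (red), in the order of the control means. SFRP1 leads in the control at 93.0 and lies below WNT5A in the knockdown, and WNT2 moves from below FZD4 to above it.

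WNT5A made up most of the ligand level per length in both groups, 89.1% to 91.4% of the sum of the 4 ligands in the control libraries and 89.2% to 90.1% in the knockdown libraries. The summed ligand level was 57.7 to 63.1 CPM per kilobase in the control and 56.7 to 59.2 in the knockdown, and these ranges overlap. Inside the remainder, WNT2 went from 1.71% to 2.16% of the sum up to 6.09% to 6.99%, and WNT5B from 6.63% to 8.47% down to 2.40% to 3.70%. The summed level of the 5 antagonists was lower, at 151 to 174 CPM per kilobase in the control and 94.4 to 98.3 in the knockdown, and SFRP1 went from 57.7% to 59.0% of it to 44.1% to 44.2%. These sums and shares use the merged exons. Over the longest transcript, control means were 102 for DKK3, 98.6 for SFRP1 and 8.62 CPM per kilobase for WNT5B, so the shares depend on the length. The sums add RNA levels and say nothing of protein or of signalling.

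The gene whose level differed with the smallest p among the members was SFRP1, and the genes with the most similar course were looked for among 9009 other protein-coding genes of at least 5 CPM. By Pearson's r of log2 CPM over the 6 libraries, KDELR2, which returns proteins to the endoplasmic reticulum, and BUB3, of the spindle checkpoint, both reached 0.999, and ATP2B4, a calcium pump of the plasma membrane, 0.998. The log2 fold changes of KDELR2, BUB3 and ATP2B4 were -0.34, -0.31 and -0.89, beside -1.12 for SFRP1. The 6 libraries form 2 groups, so any gene with a steady difference between them ranks high by this measure.

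The rest of the WNT pathway was read from lists of 105 genes by role. Of these, 55 were tested, 9 rose, 4 fell and 42 did not pass, which is 23.6% called against the 8.21% of all genes. The median log2 fold change of the 55 was 0.20, where that of all genes tested was 0.01. These lists too were chosen with earlier results of these data known, so nothing is read from the share or the median. Leaving out control replicate 1, 2 or 3 gave 6, 7 or 8 calls on the lists, while 3.13%, 3.06% or 4.04% of all genes were called. Leaving out knockdown replicate 1, 2 or 3 gave 5, 8 or 7 calls, beside 3.83%, 3.97% or 3.71% of all genes. A run of edgeR on just the genes that the authors' deposited table lists gave 25 calls, beside the 17.7% of all genes.

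Most other ligands and antagonists were too low to test. Of 15 further WNT genes, 14 were below the filter and 7 had no counts at all. WNT16 was the only one tested, at a mean of 4.86 CPM in the control and 3.66 in the knockdown libraries (log2 fold change -0.36, edgeR adjusted p = 0.585). Of 12 further antagonists and their partners 2 were tested. KREMEN1, a receptor of DKK proteins, had a log2 value of 0.72 (95% interval 0.28 to 1.16, edgeR adjusted p = 0.0619), and APCDD1, a membrane-bound inhibitor, one of 1.39 (95% interval 0.37 to 2.40, edgeR adjusted p = 0.103). In alternative settings KREMEN1 passed in 2 of 17 and APCDD1 in 1 of 17. The secreted inhibitors WIF1, SFRP4 and DKK4 had 0 counts in every library.

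Of 11 genes of ligand secretion and of the R-spondin system, which raises receptor levels, 3 were tested and none passed with edgeR over all genes. WLS, the carrier that brings WNT proteins to the cell surface, was at 105 ± 4.30 CPM in the control and 84.7 ± 7.12 in the knockdown (SD, n = 3 per group; log2 fold change -0.31, edgeR adjusted p = 0.0747). WLS did pass in 3 of 17 alternative settings, with DESeq2 (adjusted p = 0.0493), with a robust prior in edgeR (adjusted p = 0.0325) and on the genes of the authors' list (edgeR adjusted p = 0.0184).

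Of 17 further receptors and co-receptors 12 were tested, 3 rose and 1 fell, beside 3.9% and 4.31% of all genes. TSPAN12, a tetraspanin that works with FZD4 in norrin signalling, was at 7.28, 6.17 and 6.08 CPM in the control and at 24.3, 22.4 and 23.3 CPM in the knockdown libraries, far apart. It rose 3.55-fold, from 6.51 ± 0.666 to 23.3 ± 0.965 CPM (SD, n = 3 per group; log2 fold change 1.83, SE 0.13, edgeR adjusted p = 0.000917), while FZD4 itself overlapped between the groups and NDP, which encodes norrin, had 4 counts, all in control replicate 2.

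ROR2, the receptor tyrosine kinase best known as a partner of WNT5A, rose 1.99-fold from 8.58 ± 1.37 CPM (SD, n = 3 per group; edgeR adjusted p = 0.0150). PTK7, a pseudokinase of planar polarity signalling, rose 1.41-fold, from 82.6 ± 3.88 to 116 ± 3.06 CPM (SD, n = 3 per group; edgeR adjusted p = 0.00930). FZD6 fell 1.38-fold, from 120 ± 8.09 to 87.2 ± 5.92 CPM (SD, n = 3 per group; edgeR adjusted p = 0.0227). ROR2 lost its call without control replicate 1, knockdown replicate 1 or knockdown replicate 2 (edgeR adjusted p 0.0548 to 0.0550). FZD6 lost its call without any 1 library except knockdown replicate 3 (edgeR adjusted p 0.0507 to 0.0864). FZD7, the highest per length of the receptors that did not pass, was at 104 ± 5.09 and 105 ± 2.61 CPM, with a log2 fold change of 0.01 whose sign differed between settings (95% interval -0.15 to 0.18).

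Inside the cell, 18 of 20 genes of the beta-catenin pathway were tested, 2 rose and 1 fell, beside 3.9% and 4.31% of all genes. TLE1, a co-repressor of TCF factors, rose 1.71-fold from 13.4 ± 1.11 CPM, and PYGO1, a beta-catenin co-factor, rose 1.41-fold from 19.2 ± 2.18 CPM (SD, n = 3 per group; edgeR adjusted p = 0.0191 and 0.0433). APC, part of the complex that degrades beta-catenin, fell 1.35-fold from 91.1 ± 5.27 CPM (SD, n = 3 per group; edgeR adjusted p = 0.0201). PYGO1 lost its call without any 1 of the 6 libraries (edgeR adjusted p 0.0870 to 0.119). TLE1 lost it without any 1 except knockdown replicate 2 (edgeR adjusted p 0.0551 to 0.0706), and APC without any 1 except control replicate 2 or knockdown replicate 2 (edgeR adjusted p 0.0686 to 0.0822). CSNK1A1, a kinase of the same complex, was the highest per length of merged exons of those that did not pass, at 28.4 CPM per kilobase in the control beside 28.3 for CTNNB1, which encodes beta-catenin and was the higher one over the longest transcript. CSNK1A1 was at 219 ± 5.59 and 218 ± 4.82 CPM, and the sign of its log2 fold change of -0.0070 differed between settings.

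Genes known as targets of beta-catenin moved both ways. Of 12, 7 were tested, 2 rose and 1 fell, beside 3.9% and 4.31% of all genes. CCND1, which encodes cyclin D1, fell 1.83-fold, from 805 ± 23.6 to 440 ± 8.03 CPM, TNFRSF19 rose 1.74-fold, from 89.7 ± 3.85 to 156 ± 6.84 CPM, and TBX3 rose 1.51-fold, from 44.3 ± 2.92 to 67.1 ± 1.73 CPM (SD, n = 3 per group; edgeR adjusted p = 0.00144, 0.00193 and 0.00688). None of these 3 lost its call in any of 17 alternative settings. AXIN2, the target most often used as a readout, had 10, 6 and 13 counts in the control and 24, 19 and 20 in the knockdown libraries. All knockdown libraries were above all control libraries in CPM, but the log2 fold change of 1.20 (SE 0.36, 95% interval 0.33 to 2.06) did not pass over all genes (edgeR adjusted p = 0.0976). AXIN2 passed in 2 of 17 alternative settings, without control replicate 3 and on the genes of the authors' list. MYC, the highest per length of those that did not pass, had a log2 fold change of -0.23 (edgeR adjusted p = 0.161). LEF1 had 10 counts in each group and SP5 and NKD1 had none.

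Of 18 genes of the planar polarity and calcium branches, through which WNT5A can act, 12 were tested. Of these 2 rose and 1 fell, beside 3.9% and 4.31% of all genes. NFATC4, a calcium-regulated transcription factor, rose 1.61-fold from 25.6 ± 3.54 CPM, NLK, a kinase that acts on TCF factors, rose 1.38-fold from 29.7 ± 2.65 CPM, and CAMK2D, a calcium-dependent kinase, fell 1.28-fold from 166 ± 8.01 CPM (SD, n = 3 per group; edgeR adjusted p = 0.0207, 0.0488 and 0.0330). NLK and CAMK2D lost their calls without any 1 of the 6 libraries (edgeR adjusted p 0.0714 to 0.124 and 0.0678 to 0.112). NFATC4 lost its call without control replicate 2, knockdown replicate 1 or knockdown replicate 3 (edgeR adjusted p 0.0601 to 0.0698). PRICKLE2, a core planar polarity gene and the highest per length of those that did not pass, had a log2 fold change of 0.11 (edgeR adjusted p = 0.538).

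**Figure D3:**
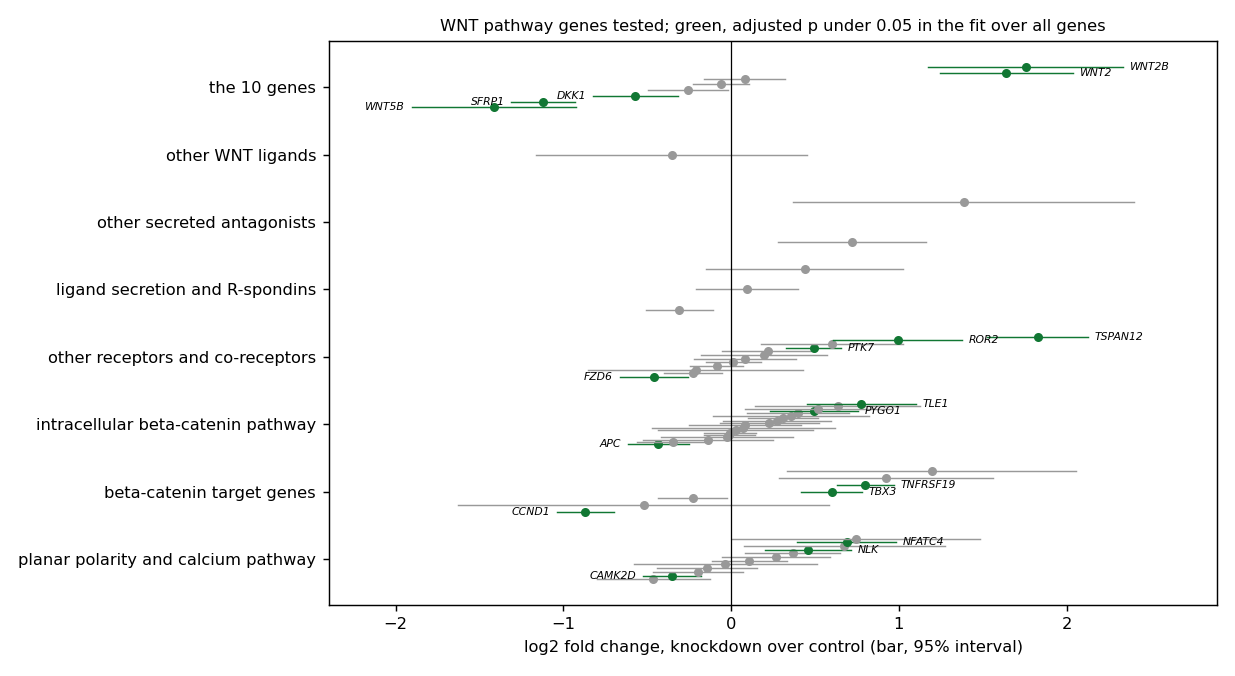
Log2 fold change, knockdown over control (horizontal axis), with its 95% interval for each tested gene of the 10 and of 7 pathway lists, green where the edgeR adjusted p over all genes is under 0.05 and grey where not. WNT2B, WNT2 and TSPAN12 lie farthest to the right, at 1.76, 1.64 and 1.83, and WNT5B and SFRP1 farthest to the left, at -1.42 and -1.12.

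Across settings, WNT2, WNT5B and SFRP1 passed in each of 17 alternative settings, with log2 values of 1.51 to 1.73, -1.57 to -1.27 and -1.15 to -1.07, and an adjusted p (edgeR, DESeq2 or limma) of at most 0.0250, 0.0458 and 0.0155. WNT2B passed in 16 of 17, DKK1 in 11 of 17 and DKK3 in 1 of 17. The log2 value of DKK3 was -0.31 to -0.15, the smallest change being that without control replicate 3. WNT5A and FZD4 passed in none of them, and their log2 values were -0.07 to -0.03 and 0.0045 to 0.13.

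**Figure D4:**
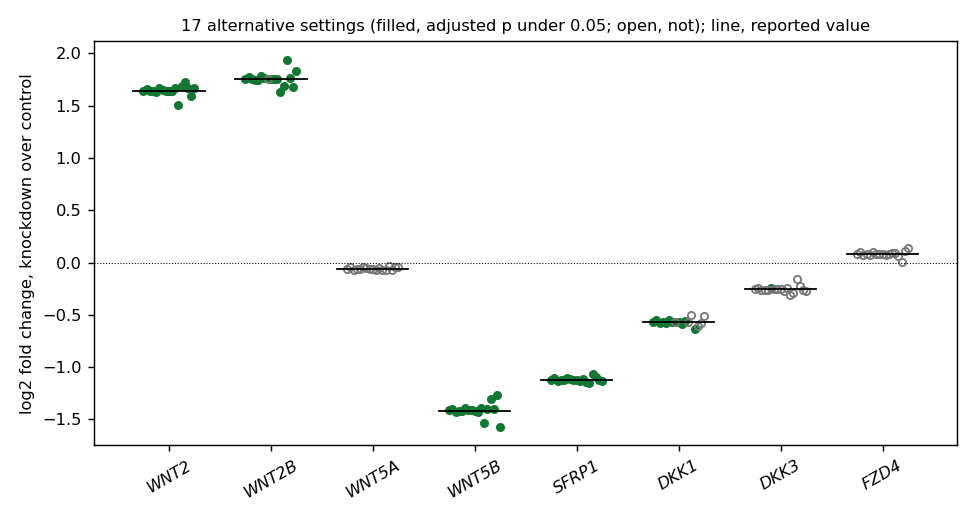
Log2 fold change, knockdown over control (vertical axis), of the 8 tested genes in 17 alternative settings (points, filled where the adjusted p is under 0.05) beside the reported value (black line). The points of WNT2, WNT2B, WNT5B and SFRP1 stay far from 0, while 6 of the DKK1 points are open.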

How the data were processed

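RNA from 6 IMR90 libraries, 3 per group, was depleted of ribosomal RNA and made into libraries with dUTP-marked strands, per the labels' protocols. For each library the authors deposited a table of unnormalized counts by Ensembl identifier. CASAVA 1.7, GSNAP, HTSeq and the build hg19 are named in the submitters' processing notes. The sources used here give neither the annotation nor the strand setting of HTSeq. The 5 lines per file that name no gene were left out: reads without a unique alignment were 64.4% to 68.8% and reads in genes 11.9% to 13.7% of those listed. The authors also deposited a table made with DESeq 1.10.1, whose columns, per the file headers, are a mean signal (counts over size factors), a ratio of group means, its log2 value, and a p-value with its adjusted p-value.

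Groups came from the sample titles. Genes were filtered with filterByExpr (minimum count 10), scaled with TMM and tested two-sided with glmQLFTest of edgeR 4.0.16 in R 4.3.3, with group as the only term and Benjamini-Hochberg adjustment over 13445 genes. SE is the log2 fold change over the square root of F, and 95% intervals use the fit's degrees of freedom. DESeq2 1.42.0 and limma 3.58.1 (voom) were alternatives, with 3 scalings, 2 filters, the genes of the authors' table, leaving out the 20 most abundant genes, a replicate block, a robust prior and each library left out. The steps were tested on simulated counts. Symbols came from the reference name table, lengths and overlaps from GENCODE 29 (another build, so no gene coordinates are given) and promoters from RefSeq on GRCh38.p14, with entries for 8 of the 10 genes used: SFRP1 was left out and DKK3 has none. As a check of strand, the 20 bases after the start were found in a GENCODE 29 transcript for 8 of the 11 windows; for DKK1, FZD4 and the second WNT5A start a transcript on that strand begins 15, 4 and 5 bases further on. No libraries of a group were duplicates (chi-square over degrees of freedom 25.2 to 37.7). The genes and lists were chosen with earlier results of these data known. Named were the 10 genes, pathway genes that passed, the highest per length of those that did not in each list, genes overlapping a member, and the 3 genes most like the member with the smallest p. Other genes named (AXIN2, APCDD1, CTNNB1, LEF1, SP5, NKD1, NDP, WIF1, SFRP4, DKK4, single markers, and those in the closing section) were chosen after their values were seen.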

Additional observations from a re-analysis of the deposited data

How the results depend on the processing

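The number of genes called was 1104 and became 2060 when only genes of the authors' table were tested, 416 with the replicate block, and 427 to 564 with 1 library left out. The members called were 5, became 3 with the replicate block and were 4 to 5 with 1 library left out. The other pathway genes called were 13, became 25 with the genes of the authors' table, 6 with the replicate block, and 5 to 8 with 1 library left out. Under the block WNT2B and DKK1 had the same direction and an edgeR adjusted p of 0.0547 each. Same-numbered libraries of the 2 groups had deviations from their group means that correlated at -0.0255, -0.0181 and -0.173. No library correlated best with its own number. With 3 libraries per group these correlations cannot tell whether the numbers pair the libraries. Reads listed in control and knockdown were 46821294 and 44546003 for number 1, 32204507 and 33193394 for number 2, and 28537921 and 28350044 for number 3. FZD7 turned to -9.4e-05 with DESeq2 and ranged from -0.017 to 0.048 with 1 library left out. CSNK1A1 turned to 0.011 with upper quartile scaling and 0.0087 with the genes of the authors' table, and ranged from -0.019 to 0.014 with 1 library left out. All of these are log2 fold changes, and neither gene passed in any setting. No other pathway gene named by the stated rule, and none of the 8 tested members, changed sign. ST7L, which overlaps WNT2B, ranged from -0.25 to 0.03 and passed in none. The cause of these shifts was not tested, except that leaving out a library leaves fewer samples. Low counts left FRZB and SFRP2 untested in the reported fit. FRZB did enter the alternative fits on every gene with at least 1 count, on genes with at least 20 counts in total and on the genes of the authors' table. It was called in none of those.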

Other observations

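Several pathway genes below the filter had few counts and an uneven split between the groups. They were picked after their values were seen, were not part of the test, and their exact 95% intervals cover counting error only. FZD5, a Frizzled receptor, had 2 counts in the control and 13 in the knockdown group, a ratio of 7.03 after scaling (1.59 to 64.2). CAMK2A, a calcium-dependent kinase, had 3 and 21 counts, a ratio of 7.57 (2.26 to 39.6), and NFATC1, a calcium-regulated transcription factor, 7 and 27, a ratio of 4.17 (1.77 to 11.3). For these 3 genes each knockdown library was above each control library in CPM. The same held for TCF7L1 (19 and 35 counts) and LGR6 (1 and 4 counts), also below the filter. It held for 14.5% of all genes tested, a set that leaves out genes below the filter, whose own share was not computed. WNT9A had 14 counts in the control group against 3, a level 4.32-fold lower (1.20 to 23.4) in the knockdown, and its groups overlap.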
